A study of Mus musculus with 24 samples.

Results

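The bone marrow of HDC-KO mice was followed through 4 arrays, 1 for each of the conditions control, MI 1 week, MI 2 weeks, and MI 4 weeks. These 4 arrays lay on one slide and were taken by their labels from the 24 arrays of the series, of which 22 held all spots. The labels gave the arrays as CD11b+ cells isolated from the bone marrow of 5 male mice and combined into 1 sample. All 4 samples, the control included, carried the Hdc knockout, and the mice were 10 weeks old on a Balb/C background according to the methods. The 3 MI samples came from mice with acute myocardial infarction, taken 1, 2, or 4 weeks afterwards, and the labels say no more of the control than that it is one. Each MI array was compared with the control array. With 1 array per condition there was no spread between mice to measure, so no difference below carries a test, and all 3 comparisons share the same control array.

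Histidine decarboxylase, the product of Hdc, is the enzyme that makes histamine, and immature myeloid cells of the bone marrow are among the cells that express it. CD11b, the integrin chain encoded by Itgam, is carried by neutrophils, monocytes, and their precursors. After myocardial infarction the marrow releases neutrophils and monocytes into the blood, and these enter the injured heart and later the scar. The marrow also holds B cell precursors, red cell precursors, megakaryocytes, and a stromal niche of reticular, bone-forming, and endothelial cells, whose transcripts can be present in a CD11b+ preparation.

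A level below is the log2 spot signal minus the 75th percentile of its array, so that 0 is a bright spot and a change of 1 is 2-fold. On the 4 arrays this percentile was 1125 to 1514 signal units, and the scanner software called 76.1 to 79.7% of spots well above background. Of probes printed in 10 spots, the SD between spots gave a change against control an SD of 0.18 to 0.22 for bright probes (level of at least -2) and 0.37 to 0.40 for dim ones. This is the error of reading 1 sample and not the error between mice. Itgam had levels of 5.22, 5.77, 5.54, and 5.60 at control, MI 1 week, MI 2 weeks, and MI 4 weeks, the order used throughout. It was bright on all 4 arrays. Hdc had levels of 2.51, 2.32, 2.78, and 2.36, all below the levels of 4.75 to 5.51 on the 4 WT bone marrow arrays. The Hdc probe was still well above background in the knockout, and whether it lies in the deleted part is not given in the sources used here.

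Sex-linked transcripts went partly against the label of male mice. Xist, which is made from the inactive X chromosome of females, had levels of -2.07, -2.84, -2.78, and -2.58, while the WT bone marrow arrays gave -5.42 to -5.87 on the same probe. A second probe of Xist gave -1.60, -1.81, -1.57, and -1.16. Of the 4 genes of the Y-linked list, 3 were well above background on all 4 arrays and Kdm5d was on none. Eif2s3y had levels of 1.56, 2.21, 1.74, and 0.72, so that it was lowest at MI 4 weeks. The median change of the 3 genes was 0.65, 0.64, and -0.83 at the 3 times. Ssty1, a Y-linked gene outside that list, went the other way at MI 4 weeks. It had levels of -3.16, -3.93, -4.49, and 0.32 on 1 probe, while its other probes were not well above background on any array. The 4 times also held the 4 positions of the slide in the same order on every slide, so that time and position cannot be told apart. Whether the mix of mice moved the values below was not tested.

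Most genes differed by less than 2-fold from control at every time. At MI 1 week, of 23799 genes or transcripts well above background on both arrays, 1155 (4.85%) were at least 2-fold higher than in control and 1505 (6.32%) at least 2-fold lower. At MI 2 weeks, of 24612, 761 (3.09%) were higher and 719 (2.92%) lower. At MI 4 weeks, of 24225, 1352 (5.58%) were higher and 1044 (4.31%) lower. These shares are the background against which each count of list members below is read. For lists with many dim members the larger shares of dim genes, given below for both directions together, are the closer background. Genes at least 4-fold lower were the largest class of that size at MI 1 week, where 285 were lower and 109 higher. Among dim genes the share past 2-fold was 17.6, 10.5, and 15.6% at the 3 times, and among bright genes it was 6.16, 2.25, and 5.42%. The balance of the directions depends on the scaling: with each array scaled to its median, 1422 genes were higher and 1262 lower at MI 1 week, and 1172 were higher and 1210 lower at MI 4 weeks. The median change over all genes was 0.07, 0.01, and 0.04.

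**Figure D1:**
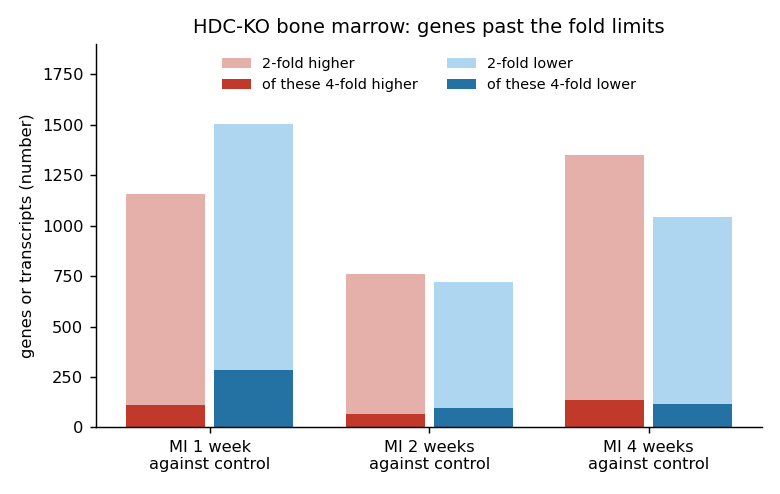
Number of genes or transcripts at least 2-fold (pale bars) and at least 4-fold (dark bars) higher (red) or lower (blue) than control on the MI 1 week, MI 2 weeks, and MI 4 weeks arrays of HDC-KO bone marrow, 1 array per condition. The MI 2 weeks array has the fewest genes past either limit, and lower genes outnumber higher ones at MI 1 week.

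Platelet and megakaryocyte genes were lower at MI 1 week. Of 12 such genes, 10 were at least 2-fold lower, none was higher, and the median change was -1.91, or 3.75-fold lower. Ppbp, a chemokine stored in platelet granules, had levels of 4.04, 0.95, 3.12, and 3.40 and was 8.52-fold lower at MI 1 week. Pf4, platelet factor 4, had levels of 4.17, 2.74, 3.22, and 3.90. Treml1, a receptor of platelet granules, had levels of 1.50, -0.94, 0.48, and 0.97. In each of these the MI 1 week array was the lowest and the control array the highest. Gp1ba, Gp5, and Gp9, parts of the receptor for von Willebrand factor, were 3.84-, 4.09-, and 3.79-fold lower at MI 1 week. The remaining 2 members, Gp1bb and Itgb3, had changes of -0.19 and -0.42.

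Of the 8 genes furthest below control at MI 1 week, with control or MI 1 week at a level of at least -2, 3 outside the list are known from platelets. The rest of these 8 were Scgb1b30, Nid1, Capsl, Irs1, and Tnfrsf13c. Slc6a4, the serotonin transporter, had levels of 0.08, -4.65, -1.10, and -0.05 and was 26.6-fold lower. Alox12, the platelet 12-lipoxygenase, had levels of 1.70, -2.21, 1.14, and 1.90, and its second probe gave -3.05, -7.16, -3.64, and -2.24, which was not well above background at MI 1 week. Myl9, a myosin light chain of contractile cells and platelets, had levels of 1.96, -1.87, 1.24, and 1.77. In these 3 genes the MI 1 week array stood alone below the other 3 arrays by 3.56, 3.35, and 3.11. Thbs1, thrombospondin, which is also stored in platelets, had levels of 4.77, 2.86, 3.77, and 4.80. At MI 2 weeks the 12 platelet genes were still all below control, with a median change of -0.82, but only Treml1 was past 2-fold. By MI 4 weeks the median was -0.13, with 5 above and 7 below control. The log2 of the summed signal of the 12 genes was 5.92, 4.32, 5.16, and 5.70.

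Fewer cells of a type and less RNA per cell cannot be told apart in such bulk samples. The promoter windows of the platelet list were read from RefSeq (GRCm38.p6), from 250 bases before the start of each gene to 50 after it, and 9 of the 12 members had a window. The GATA site AGATAA, on either strand, was in the windows of 3 of these 9 members (Pf4, Gp5, Clec1b), and in 12.7% of all 27025 genes with a window. The PU.1 site GAGGAA was in 5 of 9, against 31.3% of all genes. Gp5 is printed because it holds the GATA site before its start. The 250 bases before the start, at chr16:30310782-30311031 on the minus strand, hold the site at 2 places, shown in capitals whichever strand holds it.
Gp5: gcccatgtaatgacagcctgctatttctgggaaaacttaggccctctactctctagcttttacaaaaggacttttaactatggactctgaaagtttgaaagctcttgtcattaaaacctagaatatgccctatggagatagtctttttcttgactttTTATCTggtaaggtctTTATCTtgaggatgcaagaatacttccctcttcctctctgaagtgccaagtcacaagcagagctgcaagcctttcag

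B cell genes were lower at MI 1 week by about the same amount. Of 16 measured genes, 12 were at least 2-fold lower and none was higher, with a median change of -2.06. The median was -0.30 at MI 2 weeks and -0.11 at MI 4 weeks, with 0 members past 2-fold at either time. Ms4a1, which encodes CD20, had levels of 2.17, -0.87, 1.33, and 1.53 and was 8.22-fold lower at MI 1 week. Cd79b, part of the B cell receptor, had levels of 4.03, 1.69, 3.29, and 3.93. The MI 1 week array was the lowest in both, and the MI 4 weeks array lay within 2-fold of control.

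Genes of the precursor stages were low at the same time. Rag1, of the recombinase that assembles antigen receptor genes, had levels of -0.25, -3.20, -0.71, and -0.38, and was 7.73-fold lower at MI 1 week. Its second probe gave -2.97, -5.61, -3.02, and -3.38. Vpreb3, which belongs to the surrogate light chain family, was 6.58-fold lower, with levels of 3.36, 0.64, 2.60, and 3.35. The transcription factors Ebf1 and Pax5, which commit cells to the B lineage, were 5.93- and 4.57-fold lower at MI 1 week. The remaining members stayed within 2-fold of control, and Cd22, Fcer2a, Cr2, and Cd79a had changes of 0.13, 0.10, -0.51, and -0.52. Tnfrsf13c, the receptor for the B cell survival factor BAFF, was 10.05-fold lower at MI 1 week on its brighter probe (0.45, -2.88, -0.54, and -0.35), while its other probe gave -1.78, -1.95, -1.55, and -1.54.

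Among 12 B cell genes with a promoter window, the E-box CANNTG was in all 12, but it was also in 74.99% of all genes. For each list, both strands were searched for the interferon-stimulated response element TTTCNNTTTC, the STAT site TTCNNNGAA, and the wider STAT6 site TTCNNNNGAA. The CCAAT box, the letters TTTGAA and TGACG, the AP-1 site TGANTCA, and the C/EBP site TTGCNNAA were searched as well. Matches of different motifs may overlap. A match gives letters in a window and not a bound site. The window of Vpreb3, whose difference is among the largest of the list, is printed with its E-boxes in capitals, of which some overlap (250 bases before the start, chr10:75948050-75948299, plus strand).
Vpreb3: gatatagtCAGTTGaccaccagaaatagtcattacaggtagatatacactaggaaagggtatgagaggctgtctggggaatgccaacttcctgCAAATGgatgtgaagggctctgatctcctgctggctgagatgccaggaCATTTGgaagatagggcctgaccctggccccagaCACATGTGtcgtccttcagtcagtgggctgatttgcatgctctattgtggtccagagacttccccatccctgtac

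Jchain, which joins the units of IgM and IgA and marks plasma cells, went the other way. It had levels of -0.30, 2.41, 1.56, and 1.80 and was higher on all 3 MI arrays, by 6.54-, 3.63-, and 4.28-fold. Of 8 genes of the plasma cell list, 2 were at least 2-fold higher and 2 at least 2-fold lower at MI 1 week, with a median of 0.19. The other higher one was Tnfrsf17, the plasma cell receptor BCMA, with low levels of -5.47, -3.97, -5.06, and -4.49, above control on all 3 MI arrays. The lower ones were Sdc1, with levels of -4.47, -6.05, -4.75, and -4.03, and Mzb1, with levels of 0.36, -1.15, -0.23, and 0.17. The remaining 4 had changes within 2-fold at every time.

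Other lymphoid and antigen presentation genes were lower at MI 1 week too. Of 12 NK and cytotoxic lymphocyte genes, 7 were at least 2-fold lower, with a median change of -1.20. Most of these probes were dim, and over the members with a level of at least -2 the median was -0.12. Gzma, a granzyme, had levels of 1.35, -0.02, 0.88, and 0.94. Of 14 T cell genes, 5 were at least 2-fold lower, with a median of -0.39. Il7r, the interleukin-7 receptor of lymphoid precursors and T cells, was the most different, with levels of 0.54, -2.39, -0.35, and -0.76. Cd3d, Cd3e, Cd4, and Cd8a had changes of 0.08, 0.02, 0.38, and 0.00 at MI 1 week.

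All 10 MHC class II presentation genes were below control at MI 1 week, 5 of them past 2-fold, with a median of -0.95. H2-Ob, an antigen loading regulator found in B cells, was 6.27-fold lower (0.96, -1.69, 0.08, and -0.13), with a change of -1.41 on its second probe, and Cd74, the invariant chain, was 2.44-fold lower (3.76, 2.47, 3.64, and 3.74). Among 16 chemokine receptors, 5 were past 2-fold lower, and they included Cxcr5, Ccr6, and Ccr7, which guide B cells, T cells, and dendritic cells. Ccr7 had levels of 0.20, -1.85, -0.57, and 1.08, so that the highest value was at MI 4 weeks.

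**Figure D2:**
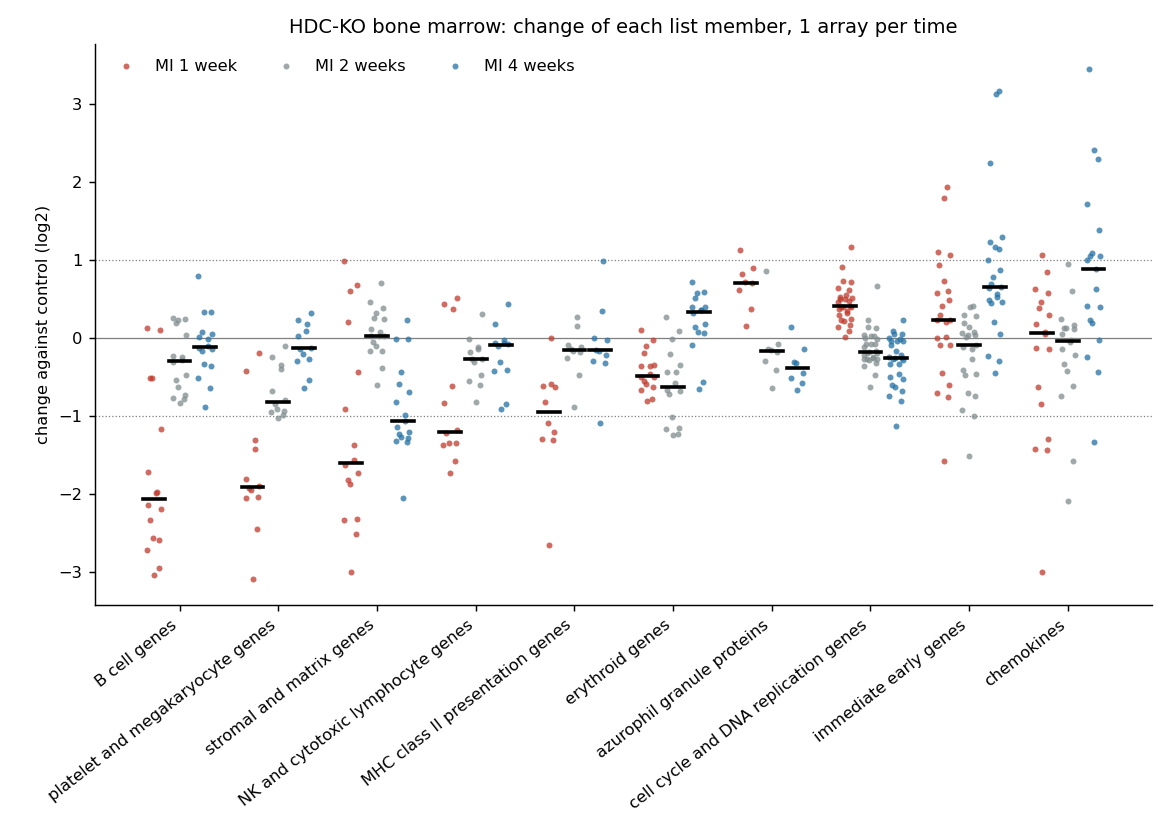
Change against control (log2, 1 array per condition) of each member of 10 gene lists at MI 1 week (red), MI 2 weeks (grey), and MI 4 weeks (blue) in HDC-KO bone marrow; each point is a gene, black lines are medians, and dotted lines mark 2-fold. The B cell, platelet, and stromal medians lie between -2.06 and -1.60 at MI 1 week, and the immediate early and chemokine medians lie highest at MI 4 weeks.

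Stromal and matrix genes were low at 2 separate times. Of 16 genes well above background on both arrays at MI 1 week, 10 were at least 2-fold lower, with a median change of -1.60. At MI 2 weeks none of 17 was past 2-fold, and the median was 0.03. At MI 4 weeks 9 of 17 were at least 2-fold lower, with a median of -1.06, which became -0.39 with the normexp background correction. Fbn1, fibrillin, was not well above background at MI 1 week and was at least 5.23-fold lower there. Such a bound sets the lowest signal well above background of the dim array, or the probe's own signal if higher, in place of the missing one.

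The members differed in when they were low. Cxcl12, the chemokine that holds stem and myeloid cells in the marrow, had levels of 1.98, -1.02, 2.09, and 0.65, and its second probe gave -0.29, -3.30, -0.18, and -1.36. It was 8.01-fold lower at MI 1 week and 2.53-fold lower at MI 4 weeks on the first. Col3a1, Col6a1, and Sparc were lowest at MI 1 week, at 4.98-, 5.69-, and 5.01-fold below control. Sparc, a collagen-binding matrix protein, had levels of 1.65, -0.68, 1.05, and 0.32. The type I collagen genes were not low at MI 1 week: Col1a1 had levels of 1.02, 1.70, 1.04, and -1.02, and Col1a2 had levels of -0.70, -0.50, -0.46, and -1.84. For Col1a1 the MI 4 weeks array stood alone, 2.05 below the next array. The log2 of the summed signal of the list was 3.72, 2.90, 3.65, and 2.63.

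Endothelial genes, listed after their values had been seen, were in part low at MI 1 week too. Of 15 genes well above background on both arrays at MI 1 week, 6 were at least 2-fold lower and none was higher. Cdh5, which encodes VE-cadherin, had levels of -0.86, -3.80, -1.43, and -2.17. Robo4, an endothelial guidance receptor, had levels of -0.95, -3.95, -1.82, and -2.61. Pecam1 and Kdr, which other cells also express, had changes of -0.01 and 0.11. Emcn and Tek were not well above background at MI 1 week, with bounds of at least 2.87-fold and at least 1.69-fold lower. Later, at MI 4 weeks, 6 of 17 were at least 2-fold lower and 6 were above control. The median change of the list was -0.73, -0.36, and -0.22 at the 3 times.

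**Figure D3:**
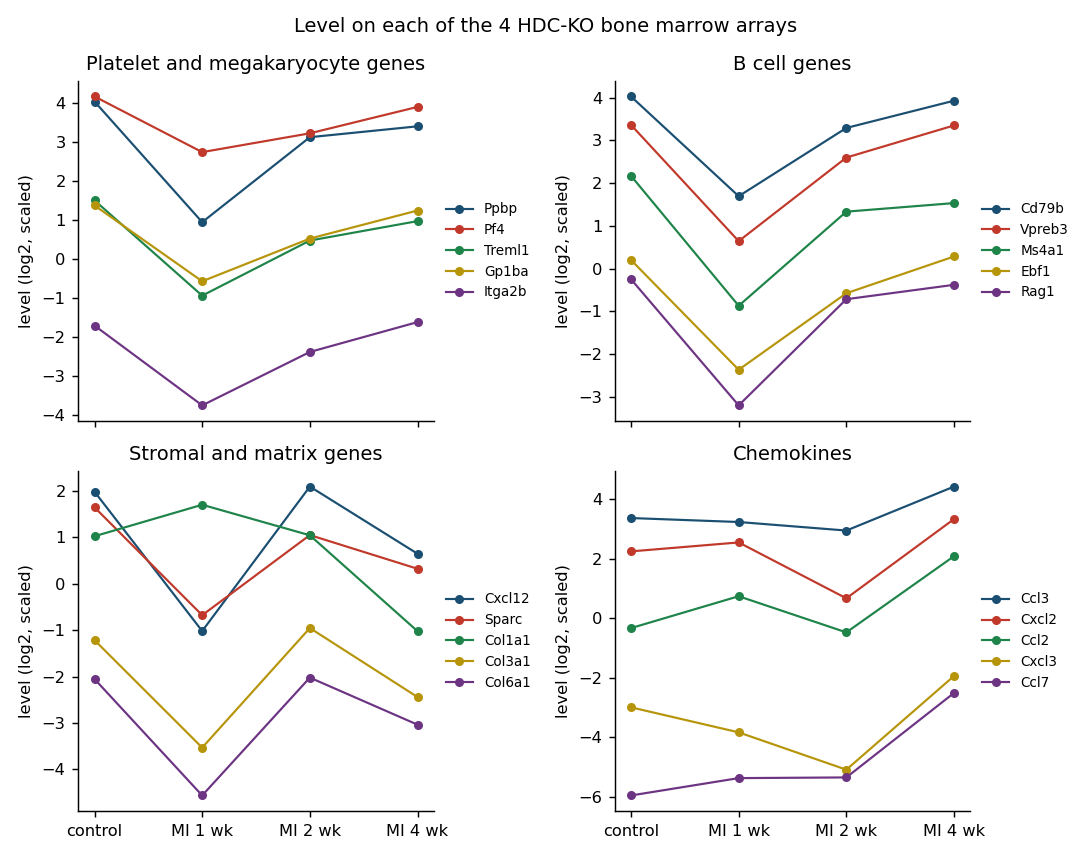
Level (log2 signal minus the array's 75th percentile) of 5 genes from each of 4 lists on the 4 HDC-KO bone marrow arrays; each point is 1 array. Platelet and B cell genes are lowest at MI 1 week, Cxcl12 and Sparc are low at MI 1 week and lower than control at MI 4 weeks, Col1a1 is low at MI 4 weeks, and the 5 chemokines are highest at MI 4 weeks.

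Genes of granulocytes and of dividing cells lay above control at MI 1 week, mostly by less than 2-fold. All 8 azurophil granule genes were above control, with a median change of 0.71. They included Elane, neutrophil elastase, with levels of 4.77, 5.49, 4.63, and 4.91, and Fcnb, a ficolin of immature myeloid cells, with levels of 2.12, 3.25, 2.97, and 1.98. Only Fcnb was past 2-fold. All 14 specific and gelatinase granule genes were above control as well, with a median of 0.54 and none past 2-fold. At MI 4 weeks the azurophil median was -0.38 and the specific granule median 0.26. Of 18 mature neutrophil genes the median was 0.14, 0.06, and 0.14.

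All 28 cell cycle and DNA replication genes lay above control at MI 1 week, with a median change of 0.41 and 1 past 2-fold. Plk1, a mitotic kinase, had levels of 2.43, 3.34, 2.45, and 2.39, and Mki67 had levels of 4.07, 4.49, 4.00, and 3.82. The list was below control later, with medians of -0.17 and -0.25. The median change of all genes at MI 1 week was 0.07, and 0.18 with median scaling.

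The stefins, small inhibitors of cysteine proteases that lie in a gene cluster and are abundant in neutrophils, were higher at MI 1 week by more. This list was also made after the values had been seen. Of 8 members well above background on both arrays, 5 were at least 2-fold higher, with a median change of 1.21. Stfa3 had levels of 3.29, 5.43, 3.66, and 3.67, and the MI 1 week array stood alone above the others by 1.76. Stfa1 had levels of 3.94, 5.72, 4.24, and 4.34, and Cstdc6 had levels of -1.04, 1.39, -0.36, and -0.41. At MI 2 and 4 weeks the medians were 0.07 and 0.27 and no member was past 2-fold. The genes of this cluster are alike in sequence, so that 1 probe may read several of them.

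Fewer genes were past 2-fold at MI 2 weeks than at the other times, but some groups were furthest from control there. Of 16 erythroid genes, 5 were at least 2-fold lower, with a median change of -0.62, against -0.48 at MI 1 week and 0.34 at MI 4 weeks. Hbb-b2, a beta globin, had levels of 3.44, 2.97, 2.19, and 3.76. Slc4a1, the band 3 anion exchanger of the red cell membrane, had levels of 2.02, 1.23, 0.79, and 2.20. Klf1, the erythroid transcription factor, had levels of 1.60, 1.05, 1.25, and 2.31. In the first 2 the MI 2 weeks array was the lowest, and in all 3 the MI 4 weeks array the highest. Hbb-bh1, an embryonic globin that was not on the list, had levels of -2.94, -1.18, -0.69, and -0.05, higher at each later time.

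A few heat shock genes were high at MI 2 weeks. Hspa1a, the inducible Hsp70, had levels of -4.53, -2.05, -0.19, and -1.11 and was 20.2-fold higher at MI 2 weeks, and the control array stood alone below the others by 2.48. Hsph1, a partner of Hsp70, had levels of -0.11, -0.43, 2.16, and 1.15, and its second probe gave -1.22, -1.56, 1.31, and 0.15. Hspb1, a small heat shock protein, had levels of -1.57, -3.82, -0.37, and -1.98. These 3 were the members past 2-fold at MI 2 weeks of 20 measured, and the median of the list was 0.31. Hspa8, the constitutive form, had levels of 5.69, 5.79, 5.80, and 5.91.

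Several single genes were low at MI 2 weeks. Impact, a regulator of the response to amino acid lack, had levels of -0.02, 0.06, -3.20, and 0.99 on 1 probe and was 9.05-fold lower at MI 2 weeks, but its second probe gave -3.85, -3.86, -3.72, and -2.54. Spats2l, with 1 probe, had levels of 0.80, -0.18, -1.59, and 1.63. Cxcl2 and Cxcl3, chemokines that draw neutrophils, were 2.98- and 4.26-fold lower at MI 2 weeks, and Cxcl1 was not well above background there and was at least 5.06-fold lower.

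The chemokines were the list with the highest median at MI 4 weeks. Of 19 chemokine genes well above background on both arrays, 9 were at least 2-fold higher and 1 was lower, with a median change of 0.88. Over the brighter members alone the median was 0.31. Ccl2, which draws monocytes, had levels of -0.33, 0.74, -0.47, and 2.08 and was 5.32-fold higher at MI 4 weeks. Ccl7, a relative that acts on the same receptor, was 10.8-fold higher from a low level (-5.95, -5.36, -5.34, and -2.51). Ccl12 was 4.92-fold higher, with levels of -5.81, -5.18, -5.84, and -3.51. In each of the 3 the MI 4 weeks array was the highest.

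The neutrophil chemokines Cxcl1, Cxcl2, and Cxcl3 were 3.27-, 2.12-, and 2.07-fold higher at MI 4 weeks. Cxcl2 had levels of 2.24, 2.54, 0.67, and 3.33, so that the same gene was lowest at MI 2 weeks and highest at MI 4 weeks. Ccl3 had levels of 3.36, 3.23, 2.94, and 4.42, while Ccl4, its neighbour in function, had levels of 5.01, 5.40, 5.14, and 5.20. Cxcl12, made by stromal cells, was the member past 2-fold lower.

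Of the 20 chemokine genes on the array, 14 had a promoter window. A motif for NF-kappaB, added after the values had been seen, was in the windows of 5 of these 14 (Ccl9, Cxcl1, Cxcl2, Cxcl3, and Cxcl10) and in 9.55% of all genes with a window. Of these 5, all but Ccl9 were past 2-fold higher at MI 4 weeks, and Ccl9 had levels of 2.90, 1.46, 2.16, and 2.88. Ccl3 and Ccl12, whose windows lack the motif, were past 2-fold higher at that time as well. The motif was picked with these values known, so its overlap with the higher genes is not a test. The AP-1 site was in 3 of 14, against 8.97% of all genes. The windows of Cxcl1, Cxcl2, and Cxcl3 are printed because each holds 2 overlapping matches to the NF-kappaB motif, 1 on each strand, shown in capitals, and because these genes shared their high time. Each shows the 250 bases before the start on the plus strand of GRCm38.p6, at chr5:90890995-90891244, chr5:90903649-90903898, and chr5:90785851-90786100.
Cxcl1: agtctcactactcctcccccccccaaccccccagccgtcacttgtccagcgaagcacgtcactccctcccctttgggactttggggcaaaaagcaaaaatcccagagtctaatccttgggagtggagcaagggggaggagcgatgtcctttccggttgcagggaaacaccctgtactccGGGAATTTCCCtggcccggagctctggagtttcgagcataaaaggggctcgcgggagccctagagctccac
Cxcl2: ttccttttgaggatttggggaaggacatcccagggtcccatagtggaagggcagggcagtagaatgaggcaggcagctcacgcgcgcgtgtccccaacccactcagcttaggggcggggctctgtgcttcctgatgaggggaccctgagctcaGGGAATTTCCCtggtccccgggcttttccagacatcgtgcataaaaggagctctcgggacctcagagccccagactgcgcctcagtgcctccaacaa
Cxcl3: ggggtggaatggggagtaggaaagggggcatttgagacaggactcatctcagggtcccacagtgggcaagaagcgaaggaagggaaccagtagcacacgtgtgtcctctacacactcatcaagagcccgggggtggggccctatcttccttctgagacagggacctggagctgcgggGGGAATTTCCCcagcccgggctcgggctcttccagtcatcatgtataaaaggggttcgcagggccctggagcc

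Immediate early genes, which cells switch on within minutes of a stimulus, were higher at the same time. Of 23 such genes, 8 were at least 2-fold higher at MI 4 weeks and none was lower, with a median change of 0.65. At MI 1 week 4 were higher and 1 lower, with a median of 0.23. Atf3, a stress-induced transcription factor, had levels of 0.78, 1.84, 0.81, and 3.94 and was 8.94-fold higher at MI 4 weeks. Fosl1, a Fos family member, had levels of -4.48, -2.68, -4.09, and -1.36, and Fosb had levels of -0.85, 1.08, -1.55, and 1.39. In these 3 the MI 4 weeks array was the highest and the MI 1 week array the next. Fos, Jun, and Dusp1, which many stimuli switch on, had changes of 0.05, 0.44, and -0.23 at MI 4 weeks. Nr4a3 was well above background at MI 4 weeks alone, where it was at least 3.37-fold higher.

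NF-kappaB targets and cytokines were higher at MI 4 weeks as well. Of 20 genes, 6 were at least 2-fold higher and none lower at MI 4 weeks, with a median change of 0.55. They were Il6, Il10, Tnf, Icam1, Nlrp3, and Tnfaip3. Il6 had levels of -4.04, -4.90, -4.07, and -2.18 and Nlrp3, the inflammasome sensor, had levels of -0.87, -1.33, -0.95, and 0.88 (second probe -2.41, -2.73, -2.23, and -1.37). Tnfaip3, a brake on NF-kappaB, had levels of 2.50, 2.96, 1.96, and 3.93. Tnf was past 2-fold at MI 1 week too, at levels of -0.71, 0.41, 0.01, and 0.56. Cd40 was lower at MI 1 week (-0.10, -2.73, -0.86, and -0.34).

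Gdf15, a stress-induced cytokine of the TGF-beta family, had the largest fold above control at MI 4 weeks among genes measured above background in control and at that time. Its levels were -4.90, -2.12, -3.28, and -0.30, so that it was 6.86-, 3.07-, and 24.2-fold above control. Monocyte and macrophage genes had a median change of 0.54 at MI 4 weeks, with 1 of 19 past 2-fold. C1qa, a complement component of macrophages, had levels of 0.36, 0.35, 0.10, and 1.15, and Mertk, a receptor for dying cells, had levels of -3.02, -2.30, -3.04, and -2.06. Cd163, a haemoglobin scavenger receptor, was the member past 2-fold, from a low level of -5.41 to -4.18. Adgre1 was left out because its control spot was marked as an outlier.

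Interferon-induced genes hardly differed from control. Of 21 such genes, 0 were past 2-fold at MI 1 and 2 weeks, with medians of -0.14 at both, and 2, Cxcl10 and Irf7, were at least 2-fold higher at MI 4 weeks, with a median of 0.46. Ifit3, an antiviral effector, had levels of 2.22, 1.94, 1.75, and 2.93. Among 20 genes of interferon-gamma GTPases and MHC class I, 3 were at least 2-fold lower at each time. Nlrc5, the activator of MHC class I genes, had levels of 3.21, 1.49, 1.34, and 1.41 on its brighter probe, and its other probe gave -3.77, -3.15, -4.42, and -3.36. Gbp4 had levels of -0.84, -2.64, -2.04, and -1.98. The MHC class I genes H2-D1, H2-K1, and B2m had changes of 0.15 to 0.47 at MI 1 week.

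Some genes differed from control on all 3 MI arrays. Of 23257 genes well above background on all 4 arrays, the control array stood alone above the other 3 by at least 1 for 132 (0.568%) and alone below them for 470 (2.02%). The MI 1 week array stood alone above for 53 (0.228%) and below for 419 (1.8%). The MI 2 weeks array stood alone above for 15 (0.0645%) and below for 270 (1.16%), and the MI 4 weeks array above for 136 (0.585%) and below for 61 (0.262%). Bcl2l15, of the BCL2 family, was the gene for which the control array stood highest, with levels of 2.83, 0.29, -0.54, and -0.42, and another probe gave -1.12, -4.37, -4.35, and -5.75. Tlr7, a receptor for RNA, was lower on all 3 MI arrays by 2.39-, 2.24-, and 3.11-fold, with levels of 1.54, 0.29, 0.38, and -0.09. Vegfa, the vascular growth factor, was higher by 2.01-, 2.59-, and 2.38-fold (-0.98, 0.03, 0.39, and 0.27), and by 0.69, 1.19, and 1.63 on the log2 scale on its second probe.

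In time order, 366 genes (1.57%) were higher at every step from control to MI 4 weeks and by at least 1 in all, and 164 (0.705%) were lower at every step. Of those with a level of at least -2 on the brightest array there were 145 and 69. A step counted whatever its size, so steps within the error of reading 1 sample are included. Pik3ip1, an inhibitor of PI3 kinase, had levels of 0.84, -0.93, -1.10, and -1.57 and was 5.32-fold lower at MI 4 weeks. Cass4, an adaptor of focal adhesions, had levels of -3.19, -2.95, -2.86, and -0.20, with nearly all of the step at the end, and its second probe gave -4.79, -4.77, -4.75, and -2.75. The other genes with the largest totals, such as Gsx2, Crnn, Apoc3, and Magea1, were dim at control or at MI 4 weeks, and the second probes of Gsx2 and Magea1 were not well above background.

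The WT bone marrow arrays, another slide with the same 4 conditions, shared some of these differences and not others. At MI 1 week the B cell median was -2.98 in WT and -2.06 in HDC-KO, the platelet median was -0.99 and -1.91, and the stromal median was -0.74 and -1.60. Slc6a4 had levels of -1.53, -5.06, -1.64, and -2.33 in WT, lowest at the same time. Some other MI 1 week medians did not match. The cell cycle median was -0.38 in WT, with 25 of 28 genes below control, and 0.41 in HDC-KO. The azurophil median was -0.38 in WT, with 7 of 8 below control, and 0.71 in HDC-KO. The MHC class II median was -0.01 in WT and -0.95 in HDC-KO, while the specific granule median was 0.79 and 0.54. Interferon-induced genes were the widest gap. In WT their median was 2.64, with 21 of 21 at least 2-fold higher at MI 1 week, and 1.65 at MI 2 weeks, against -0.14 at both in HDC-KO. Over all 22537 genes compared in WT at MI 1 week, 8.57% were at least 2-fold higher and 5.55% at least 2-fold lower. The median change of these was 0.22, and WT counts at MI 1 week are read against these shares. Rsad2, the antiviral protein viperin, had levels of 0.22, 4.25, 2.34, and 0.93 in WT and 0.84, 0.20, 0.45, and 1.62 in HDC-KO.

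Erythroid genes had a median of -2.75 at MI 1 week in WT, with 14 of 15 at least 2-fold lower, against -0.48 with 0 of 16 in HDC-KO. The MI 4 weeks erythroid median was -1.35 in WT and 0.34 in HDC-KO. Chemokine and immediate early medians at MI 4 weeks were 0.55 and 0.74 in WT, near the 0.88 and 0.65 of HDC-KO, and Gdf15 had levels of -2.67, -2.98, -3.74, and -2.76 in WT, below control at all 3 times. Across genes, the change in HDC-KO and in WT had a Pearson r of 0.45, 0.29, and 0.52 at the 3 times, over 21861 to 23437 genes, which are not independent replicates. Each genotype has its own control array and 1 slide, so genotype and slide cannot be told apart, and no difference between genotypes was tested. The times held the same slide positions in both genotypes, so in a shared course time and position cannot be told apart either.

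**Figure D4:**
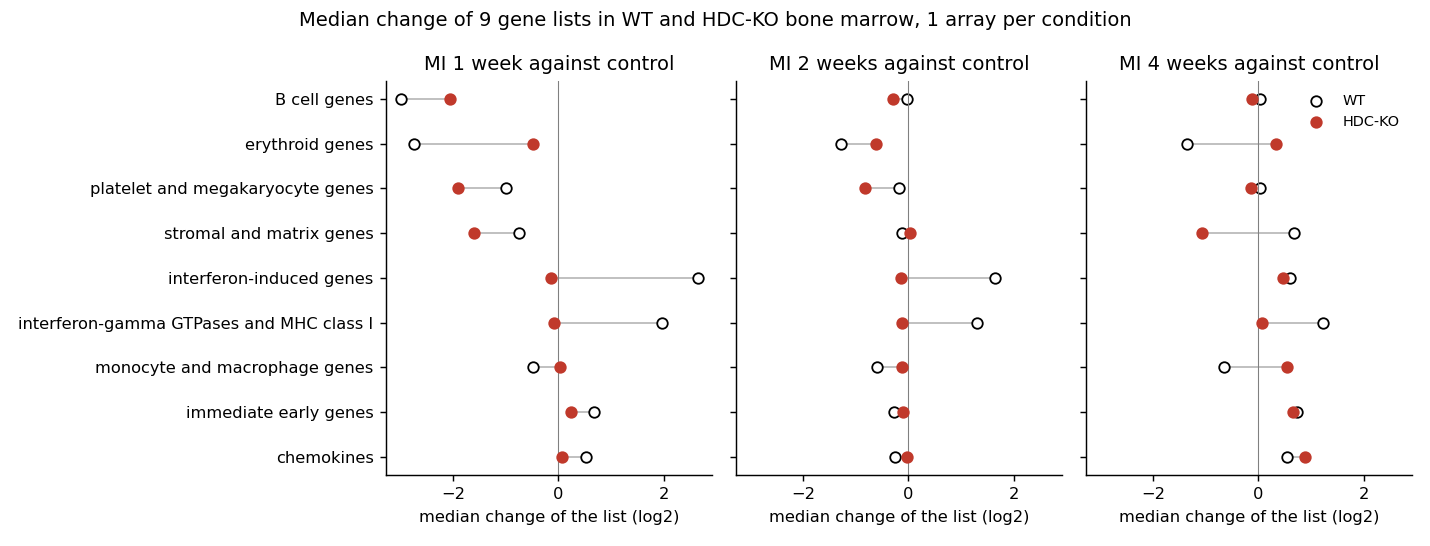
Median change against control (log2) of 9 gene lists at MI 1, 2, and 4 weeks in WT (open circles) and HDC-KO (red circles) bone marrow, 1 array per condition. The 2 interferon lists lie far to the right in WT and near 0 in HDC-KO at MI 1 and 2 weeks, the B cell list is low in both at MI 1 week, and the stromal and monocyte lists lie on opposite sides of 0 at MI 4 weeks.

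Energy, ribosomal, and JAK-STAT genes stayed within 2-fold of control on the probe used for each gene. None of 24 oxidative phosphorylation genes, 24 ribosomal protein genes, or 17 JAK-STAT and SOCS genes was past 2-fold at any time, with medians between -0.18 and 0.16. Stat6 had levels of 2.65, 2.81, 2.99, and 3.05 on its brightest probe and was within 2-fold of control on it. On a dimmer probe it had levels of 0.72, 0.50, 1.06, and 1.75, which was past 2-fold at MI 4 weeks. Of 6 histamine genes, 1 was past 2-fold lower at MI 2 weeks and none at the other times. It was Hrh3, a histamine receptor known from neurons, with levels of -2.81, -3.81, -3.86, and -3.63, below control on all 3 MI arrays. Hrh4, the histamine receptor of blood cells, had levels of -3.63, -2.72, -3.23, and -2.91, and Hnmt, which breaks histamine down, had levels of 1.40, 1.49, 1.82, and 1.69. TGF-beta genes were lower in part at MI 1 week, when 6 of 18 were at least 2-fold lower with a median of -0.34, among them Thbs1, the thrombospondin above, and the latency protein gene Ltbp1 (-0.95, -3.11, -1.46, and -0.94).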

How the data were processed

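Total RNA of CD11b+ cells, combined from 5 mice per sample, was hybridised to one-colour Agilent Mouse 4x44K arrays. The deposited files hold spot intensities that the authors' scanner software, Agilent Feature Extraction 11.0.1.1, had corrected for background (gProcessedSignal). GCRMA is named in the submitters' processing notes and Genespring in the methods, and the output of neither was used here.

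Spots marked as outliers (585 on the 4 arrays) and control spots were left out, and each intensity was expressed as log2 minus the 75th percentile of its array. Spots of a probe were averaged. Of 39429 probes, 27236 were matched to a symbol through RefSeq and 12193 kept the array's name, and a gene with several probes was read from its brightest probe over all full arrays. A gene was compared where its probe was well above background on both arrays, and 2-fold was the limit for a count. Where 1 of the arrays was not above background a lower bound was computed. There was 1 array per condition, so no test was run, and the number of arrays limits the precision. Calculations used Python 3.11.15 with numpy 2.4.6, pandas 2.3.3, and matplotlib 3.10.9, and R 4.3.3 with limma 3.58.1 for the normexp alternative (offset 50), which started from the median spot signal because the mean was not in the files used. The scripts were tested on simulated data.

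Genes were picked by rule, and not all of those picked are described above. For each time these were the 8 furthest above and 8 furthest below control with the brighter array at a level of at least -2. The 3 largest lower bounds in each direction and up to 5 members of each list with the widest range were picked too. Among those not described are Fam71a and Fam13c, 13.9- and 13.6-fold higher at MI 4 weeks, and Olfr916, 8.14-fold higher at MI 1 week. Histamine genes, Stat6, and sex-linked genes were named as checks, with the 3 genes of the largest gap for each array and the 5 with the largest total in time order. Other genes were named after their values were seen. The members and lists were chosen with earlier results of these data known. The endothelial and stefin lists, the NF-kappaB motif, and 2 alternatives were added after the values were seen. Alternatives changed the background correction, scaling, normalization, filter on dim probes, choice of probe, and fold limit.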

Additional observations from a re-analysis of the deposited data

Results flagged for a closer look

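The stromal and matrix genes lay on opposite sides of control in the 2 genotypes at MI 4 weeks. Their median change was -1.06 in HDC-KO and 0.67 in WT bone marrow, a difference of -1.73, which was not tested. With the normexp background correction the HDC-KO median was -0.39, short of the size of 0.5 that a list needed to be flagged. Cxcl12 had levels of 1.98, -1.02, 2.09, and 0.65 in HDC-KO and 1.79, -0.68, 1.66, and 2.43 in WT. Col1a1 had levels of 1.02, 1.70, 1.04, and -1.02 in HDC-KO and 0.61, 2.16, 0.05, and 1.07 in WT. Both genes were below control in HDC-KO and above it in WT at MI 4 weeks.

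The monocyte and macrophage genes did the reverse at MI 4 weeks, with a median change of 0.54 in HDC-KO and -0.65 in WT, a difference of 1.19, which was not tested either. Vcam1, an adhesion molecule of marrow macrophages and stroma, had levels of 2.77, 3.54, 2.29, and 2.66 in HDC-KO and 3.05, 1.91, 1.62, and 0.89 in WT. At MI 4 weeks Vcam1 was thus below control in both genotypes, by 0.12 in HDC-KO, where its second probe had a change of 0.31. Mertk had levels of -3.02, -2.30, -3.04, and -2.06 in HDC-KO and -2.72, -3.80, -3.42, and -4.02 in WT. Mertk was above control in HDC-KO and below it in WT at MI 4 weeks. These are comparisons of single arrays with single controls on separate slides.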

How the results depend on the processing

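Directions of the leading list medians and of the named changes were the same under the alternatives run for each of them. Counts of genes depended on the treatment of dim probes. Named changes were not run with every probe on its own, and the direction can differ between probes. At MI 2 weeks Impact had a change of -3.18 on the probe used and of 0.13 on its second probe. Of 96 alternative counts, 58 were within 1.5 times the reported one. With normexp the genes at least 2-fold higher and lower were 460 and 671 at MI 1 week, 263 and 238 at MI 2 weeks, and 639 and 318 at MI 4 weeks. Without a filter on dim probes they were 2337 and 2969, 1703 and 1821, and 2706 and 2279. At the 4-fold limit they were 109 and 285, 68 and 96, and 136 and 114. With low signals set to a floor, 1082 genes were lower at MI 2 weeks. Among genes with a level of at least -2 on the brightest array, control stood alone above for 27 and below for 84, MI 1 week for 20 and 221, MI 2 weeks for 6 and 55, and MI 4 weeks below for 32. The same limit, chosen after seeing the data for the time order, left 145 genes higher and 69 lower at every step. With normexp the arrays stood alone above and below for 43 and 150 (control), 15 and 184 (MI 1 week), 5 and 78 (MI 2 weeks), and 83 and 18 (MI 4 weeks), and 202 genes were higher and 51 lower at every step.

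The leading list medians that moved by more than the SD of a single probe's change, a wide limit for a median over several genes, were those of B cell (-1.61), NK (-0.57), and stromal genes (-1.13) at MI 1 week and of stromal genes (-0.39) at MI 4 weeks with normexp, and, over brighter members alone, those of NK genes at MI 1 week (-0.12) and chemokines at MI 4 weeks (0.31). Over all alternatives the MI 1 week median ranged from -2.10 to -1.61 for B cell and from -1.95 to -1.66 for platelet genes. The limit to brighter members was chosen after seeing the data. The cause was not tested. Of 336 alternatives for 48 named changes, 46 moved by more than that SD, 336 had the same direction and 334 were still past 2-fold, and these changes had been chosen as the largest. Of genes past 2-fold that had another probe above background, every other probe lay on the same side of control in 69.5, 61.1, and 68.4% at the 3 times. No paired analysis was possible because each condition had 1 array.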

Other observations

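Some probes were well above background on only some of the 4 arrays. Tmem252 was above it at MI 4 weeks alone and was at least 49.9-fold higher than control. Abca5, a lipid transporter, was above it at MI 1 week alone, at least 30.0-fold higher, but its second probe was not well above background on any array. Hes3, a transcription repressor of the Hes family, was above it in control alone and was at least 13.3-, 18.0-, and 18.4-fold lower at the 3 times. Each of these rests on 1 spot signal on 1 array.

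Olfactory receptor genes were taken as a rough gauge of dim probes, and whether marrow cells use them was not tested. Of 1070 olfactory receptor genes on the array, 353, 378, and 355 were well above background on the arrays compared, and 25.8, 21.7, and 27.0% of these were past 2-fold at MI 1, 2, and 4 weeks. The directions were uneven, with 61 higher and 30 lower at MI 1 week, 41 and 41 at MI 2 weeks, and 62 and 34 at MI 4 weeks. Their median changes were 0.22, 0.09, and 0.19, so these values are not a spread around 0 alone. The 10 eosinophil genes, by contrast, had 0 members past 2-fold at any time, with medians of 0.38, -0.18, and -0.20. Prg2, the major basic protein of eosinophil granules, had levels of 2.66, 3.46, 2.67, and 1.98, highest at MI 1 week and lowest at MI 4 weeks. Of 20 hypoxia and glycolysis genes, 2, 1, and 1 were past 2-fold higher, with medians of 0.33, 0.16, and 0.13, and Vegfa was among them at each time.

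Stem and progenitor genes had a median change of -0.56 at MI 1 week, with 1 member higher and 3 lower. Mecom, a transcription factor of stem cells, was the higher one, with levels of -5.93, -3.74, -4.18, and -4.37, and its second probe gave -5.93, -4.15, -5.99, and -4.62. Hoxa9, a homeobox factor of myeloid progenitors, had levels of 1.71, 0.91, 1.94, and 0.28, but its second probe went the other way at MI 1 and 4 weeks, with levels of -4.88, -3.41, -4.55, and -2.96.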
